A study of Rattus norvegicus with 3 samples.

Results

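The laminin genes Lama1, Lama5, Lamb2, Lamb3, Lamc1 and Lamc3 and the integrin genes Itga6, Itgb4 and Itgb1 were followed on 3 whole-transcript arrays. The RNA came from FRSK, a line of rat keratinocytes that was started from the skin of a fetus. The 9 genes were found by their symbols among 15037 named genes, each through 1 probe set. They were chosen by their log2 signals on these arrays and the 3 pairwise differences, with earlier results known, so the same signals are given here as a description. One array held RNA from cells given Met-ENK at 100 nM for 24 h, another RNA from cells given β-END(1-9) at the same dose and time, and the remaining array RNA from unstimulated control cells. Both peptides are opioid peptides that begin with the same residues, and β-END(1-9) carries further residues of β-endorphin. The cells, kept in medium with serum, shared the line, the plating and the extraction. A vehicle for the control cells was not given in the sources used here. Each condition had 1 array. There is therefore no estimate of the spread between cultures, no difference below could be tested, and no order of arrays can be said to exceed replicate error.

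Laminins are trimers of an α, a β and a γ chain and are part of the basement membrane on which basal keratinocytes sit. Integrins are αβ pairs in the cell membrane that bind laminin outside the cell and the cytoskeleton inside it. In skin, the α6β4 integrin sits in hemidesmosomes, where it links a laminin made of the α3, β3 and γ2 chains to keratin filaments through plectin. The β1 integrins pair with several α chains and work in focal adhesions, which connect to actin, so Itgb1 is not itself a hemidesmosome gene. Genes for the α3 and γ2 chains are not analysed here, and neither are those for the other laminin chains listed for the comparison (0 of 6 named).

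The laminin genes expressed in these cells stood lowest on the β-END(1-9) array, and Itga6 stood highest on the Met-ENK array. Lamb3, Lama5, Lamb2 and Lamc1 were each lower with β-END(1-9) than on either other array, with log2 differences from control between -0.43 and -0.19. Itga6 was 0.49 higher with Met-ENK than with control, while Itgb4 and Itgb1 differed by at most 0.05 in any comparison. The directions given for the 4 laminins and for Itga6 were the same under 3 other scalings of the arrays and with the trend along gene span removed. Of the 9 genes, 0 differed by 1.5-fold (0.58 on the log2 scale) in any of the 3 comparisons. Among the 7519 named genes that passed the level filter, a mean log2 signal at or above the median of all named genes (6.41), the share past 1.5-fold in either direction was 6.72% for Met-ENK against control, 2.83% for β-END(1-9) against control and 4.59% for Met-ENK against β-END(1-9). At a lower limit of 0.32 on the log2 scale and among the 7 of the 9 genes above the level filter, 1 was past the limit for Met-ENK against control (Itga6), where 21.2% of the 7519 genes were. For β-END(1-9) against control 3 passed, all lower (Lama5, Lamb2 and Lamb3), beside 14.2% of the 7519 genes. Lama1, under the level filter, was 0.33 higher there and also past this limit. Between the peptides 4 of the 7 passed (the same laminins and Itga6), beside 20.9%. The nearest of the 9 to the 1.5-fold limit was Lamb3, at 1.49-fold between the peptide arrays. The next were Itga6, at 1.41-fold for Met-ENK against control, and Lama5, at 1.40-fold between the peptide arrays.

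The signals are deposited log2 values whose level depends on the probes of each set, so levels were compared between arrays for 1 gene and not between genes. The 23 background probe sets of the array spanned log2 signals of 2.51 to 7.57 on each array. Of the 9 genes, 7 lay above this range on all arrays and passed the level filter, and Lama1 and Lamc3 lay within it. Identical values on a pair of arrays were common. Of the 23188 transcript clusters, 27.3% had identical values on the Met-ENK and control arrays. That share was 29.9% for the β-END(1-9) and control arrays and 27.2% for the peptide arrays. A difference of exactly 0 is therefore a frequent outcome of these values. Of 8 measured keratinocyte markers, among them the basal keratin Krt14 and E-cadherin (Cdh1), 8 lay above the background range. The same held for 2 of 12 fibroblast, 0 of 10 endothelial, 1 of 5 Schwann cell, 1 of 5 melanocyte and 1 of 9 immune cell markers. In RNA from whole cultures, fewer cells of a type and less RNA per cell cannot be told apart.

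**Figure D1:**
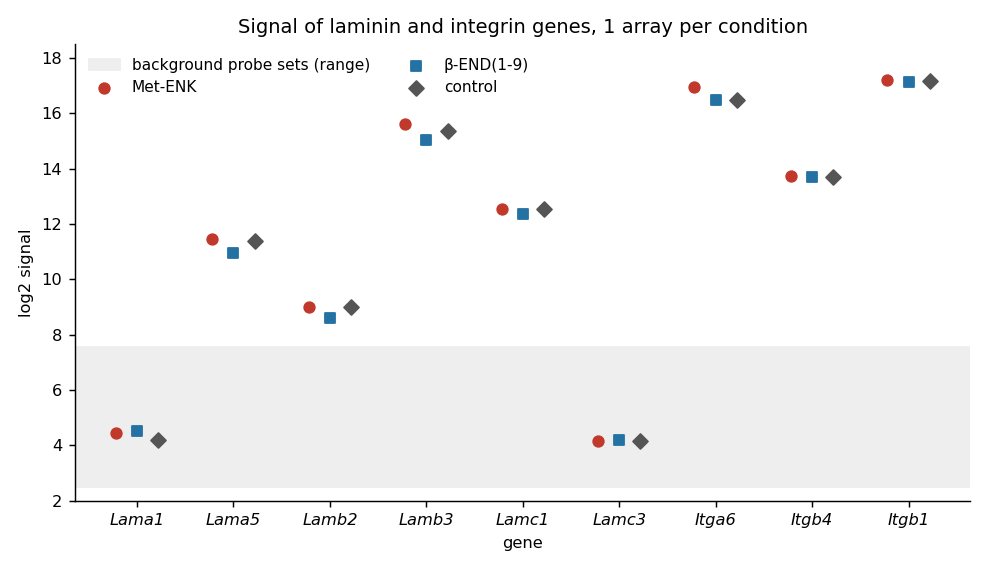
Log2 signal (vertical axis) of the 9 genes (horizontal axis) on the Met-ENK, β-END(1-9) and control arrays, 1 point per array, with the range of the 23 background probe sets shaded. The points of each gene lie close together, within 0.58 of each other, and Lama1 and Lamc3 lie inside the shaded range of 2.51 to 7.57.

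Lamb3 encodes the β3 chain, known from the laminin that anchors the epidermis, and its loss in people causes junctional epidermolysis bullosa. Its log2 signal was 15.63 with Met-ENK, 15.05 with β-END(1-9) and 15.37 on the control array. The Met-ENK array was thus the high one and the β-END(1-9) array the low one, with control between them. The difference was 0.25 for Met-ENK against control, and 28.7% of the 7519 genes lay at least as far from 0 in that comparison. For β-END(1-9) against control it was -0.32, with 13.9% of genes at least as far from 0. Between the peptides it reached 0.58, a ratio of 1.49, and 4.84% of genes lay at least as far. This was the widest spread over the 3 arrays among the 9 genes. This difference between the peptides passed 1.5-fold with each array centred on its median and after quantile normalization. It stayed under that limit after loess scaling (0.51) and with the trend along gene span removed (0.51).

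Lama5 encodes the α5 chain, the main α chain of many adult basement membranes. It had log2 signals of 11.44 with Met-ENK, 10.95 with β-END(1-9) and 11.38 on the control array. The Met-ENK and control arrays were close, and the β-END(1-9) array stood below both. Against control it differed by 0.06 on the Met-ENK array and by -0.43 on the β-END(1-9) array. In the β-END(1-9) comparison 7.79% of genes were at least as far from 0. Met-ENK exceeded β-END(1-9) by 0.49, with 8.22% of genes at least as far.

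Lamb2, the gene of the β2 chain known from the neuromuscular junction and the kidney filter, had log2 signals of 8.98 with Met-ENK, 8.60 with β-END(1-9) and 9.01 on the control array. As for Lama5, the β-END(1-9) array was the low one. Lamb2 differed from control by -0.03 with Met-ENK and by -0.41 with β-END(1-9), and 8.62% of genes were at least as far from 0 in the β-END(1-9) comparison. The small Met-ENK difference turned to 0.06 after quantile normalization and 0.01 after loess scaling. Between the peptides Lamb2 was 0.38 higher with Met-ENK, and 16.0% of genes were at least that far.

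Lamc1 encodes the γ1 chain, the most widespread γ chain. Its log2 signal was 12.56 with Met-ENK, 12.36 with β-END(1-9) and 12.55 on the control array. The pattern was that of Lama5 and Lamb2 with a smaller step, since the Met-ENK and control arrays differed by 0.01 and the β-END(1-9) array lay 0.19 under control. In the β-END(1-9) comparison 29.8% of genes were at least as far from 0, so a step of this size was common. That share was 36.7% for the difference of 0.20 between the peptides.

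Lama1, for the α1 chain of embryonic basement membranes, and Lamc3, for the γ3 chain, showed no such pattern. Lama1 had log2 signals of 4.44 with Met-ENK, 4.53 with β-END(1-9) and 4.20 on the control array. Control was the low array here, and the Met-ENK array lay 0.25 and the β-END(1-9) array 0.33 above it. Lamc3 had 4.14 with Met-ENK, 4.20 with β-END(1-9) and 4.14 on the control array, and the Met-ENK and control values were identical. Both genes lay within the background range on each array, so neither a level nor a direction can be read from them.

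Upstream sequence was at hand for 6 of the 9 genes, in the RefSeq windows of rat assembly GRCr8. The 250 bases before the annotated start are shown for Lamb3 and Lama5, the laminin genes with the widest spread over the arrays, and for Itgb1, which hardly differed. The build behind the array's probe sets was not given in the sources used here. Capitals mark matches, on either strand, to the motifs named after the sequences. Lamb3 lies at chr13:107362303-107362552 on the plus strand, Lama5 at chr3:187695975-187696224 on the minus strand and Itgb1 at chr19:73602027-73602276 on the plus strand.
Lamb3: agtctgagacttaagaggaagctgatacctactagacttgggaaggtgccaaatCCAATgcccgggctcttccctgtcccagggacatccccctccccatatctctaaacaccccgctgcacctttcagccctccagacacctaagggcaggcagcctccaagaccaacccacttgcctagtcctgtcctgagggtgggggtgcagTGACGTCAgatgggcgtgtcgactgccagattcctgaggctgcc
Lama5: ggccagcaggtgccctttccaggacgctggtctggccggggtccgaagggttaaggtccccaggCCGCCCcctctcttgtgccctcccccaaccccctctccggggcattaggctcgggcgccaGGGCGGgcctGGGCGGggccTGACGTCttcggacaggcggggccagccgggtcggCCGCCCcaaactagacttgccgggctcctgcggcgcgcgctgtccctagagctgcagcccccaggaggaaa
Itgb1: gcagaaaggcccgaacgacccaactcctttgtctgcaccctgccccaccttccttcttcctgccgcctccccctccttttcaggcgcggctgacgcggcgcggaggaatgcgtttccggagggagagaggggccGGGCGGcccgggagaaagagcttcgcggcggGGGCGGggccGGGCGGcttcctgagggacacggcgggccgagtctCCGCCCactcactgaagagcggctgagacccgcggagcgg

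Motifs were searched on both strands. One was the cAMP response element TGACGTCA together with its shorter form TGACGTC, which lies within the full element and was added after the sequences were seen. The AP-1 site was searched as TGANTCA. The GC box was searched as GGGCGG. The CCAAT box was searched by those letters, and the TATA box was searched as TATAAA. Lamb3 held the full element, whose first base lies 44 bases before the start, and 1.70% of the 27457 promoters of the same length held it. Lama5 held the shorter form with its first base 106 bases before the start, and 2.95% of promoters held that form. Of the 6 windows, 1 held the full element and 2 the shorter form, and that of Lamc1, which was also lowest on the β-END(1-9) array, held neither. The GC box, present in 32.4% of promoters, occurred 4 times in Lama5 and 4 times in Itgb1 and was not found in Lamb3. The CCAAT box, present in 34.3% of promoters, occurred in Lamb3. Neither the AP-1 site (6.36% of promoters) nor the TATA box (13.1%) was found in any of the 6 windows. Of the bases in these windows 58.4% were G or C in Lamb3, 72.8% in Lama5 and 71.2% in Itgb1, beside a median of 52.0% over all promoters. These are matches of letters and not measured sites.

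Itga6 encodes the α6 chain, which binds laminin in partnership with β4 or β1. Its log2 signal was 16.95 with Met-ENK, 16.47 with β-END(1-9) and 16.46 on the control array. The Met-ENK array stood above the other 2, which were nearly equal. Itga6 was 0.49 higher with Met-ENK than with control, a ratio of 1.41, and 10.1% of genes lay at least as far from 0. Counting higher genes only, that share was 1.58%. In this comparison 32.7% of the 7519 genes were higher and 45.7% lower. With β-END(1-9) it differed from control by 0.01. Between the peptides the difference was 0.48, and 8.76% of genes were at least as far. Counting higher genes only between the peptides, the share was 3.98% for Itga6, 2.02% for Lamb3 and 3.68% for Lama5. It was 8.03% for Lamb2 and 20.4% for Lamc1. The shares in the other paragraphs on single genes count both directions.

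Itgb4 encodes the β4 chain, which pairs only with α6 and reaches into the hemidesmosome with a long cytoplasmic tail. It had log2 signals of 13.71 with Met-ENK, 13.69 with β-END(1-9) and 13.69 on the control array. The β-END(1-9) and control values were identical, and the Met-ENK value lay 0.03 above them, a direction that turned after quantile normalization (-0.03) and loess scaling (-0.04) in the comparison of the peptides. Itgb4 thus did not share the step of its partner Itga6. In the comparison of Met-ENK with control 70.9% of genes were at least as far from 0 as Itgb4.

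Itgb1, the gene of the β1 chain of the focal adhesion integrins, had log2 signals of 17.20 with Met-ENK, 17.14 with β-END(1-9) and 17.16 on the control array. The 3 values lay within 0.05. Differences from control were 0.03 with Met-ENK and -0.02 with β-END(1-9), and the β-END(1-9) value turned to 0.06 after quantile normalization and 0.05 after loess scaling. For these 2 comparisons 69.4% and 68.0% of genes lay at least as far from 0.

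**Figure D2:**
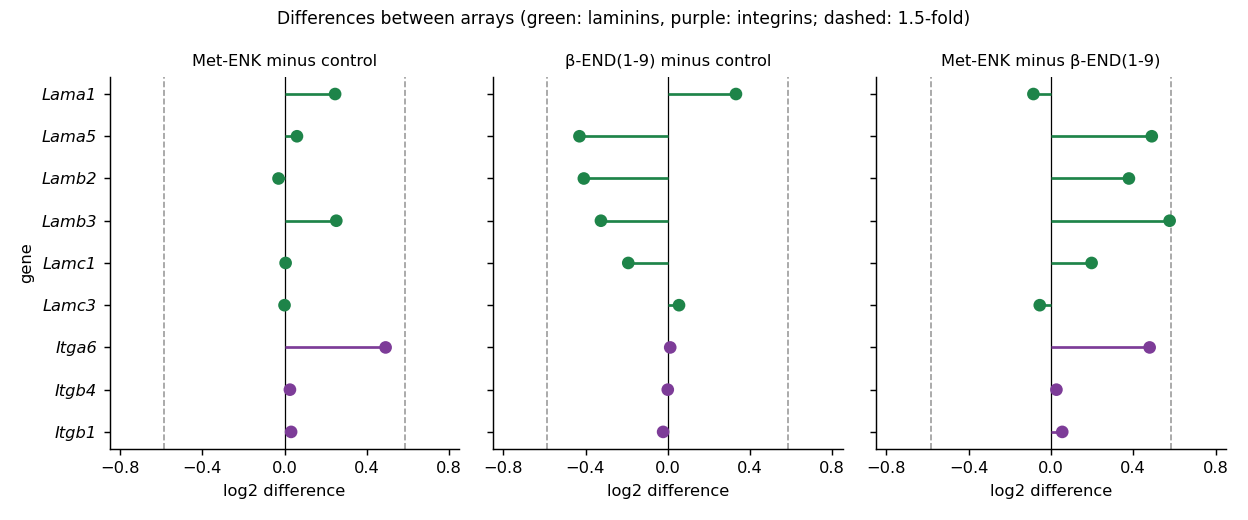
Log2 differences (horizontal axes) of the 9 genes (vertical axis) for Met-ENK minus control, β-END(1-9) minus control and Met-ENK minus β-END(1-9), with laminins in green, integrins in purple and 1.5-fold marked by dashed lines. Points stay inside the dashed lines, 4 of 6 laminins lie below 0 in the β-END(1-9) panel, and Itga6 (0.49) and Lamb3 (0.25) lead the Met-ENK panel.

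Over the 9 genes, 2 of which lay within the background range, the median for Met-ENK against control was 0.03, with 7 higher, 1 lower and 1 equal. Over all 15037 named genes, the level filter not applied, that median was 0.00, with 37.3% higher and 35.9% lower. For β-END(1-9) against control the median of the 9 was -0.02, with 3 higher, 5 lower and 1 equal, and over the 15037 genes it was 0.00, with 30.8% higher and 39.5% lower. Lama1 and Lamc3 were among the 3 higher. The 6 laminins had a median of -0.26 in this comparison, the 4 above background one of -0.37 and the 3 integrins one of 0.00. Between the peptides the median of the 9 was 0.20, with 7 higher with Met-ENK, and the 2 lower were Lama1 and Lamc3. Over the 15037 genes it was 0.00, with 39.1% higher and 34.1% lower. The comparisons share arrays, so their values are not separate observations. Lower values with β-END(1-9) were common over the array, since 56.1% of the 7519 genes were lower than control and 18.8% higher. The middle of these genes, between percentiles 5 and 95, spanned -0.47 to 0.20, and the 4 laminins that were lower lay inside it. For Met-ENK against control the middle spanned -0.63 to 0.34, and Itga6 (0.49) lay above it. Between the peptides it spanned -0.47 to 0.45, and Lamb3 (0.58), Lama5 (0.49) and Itga6 (0.48) lay above it.

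The 8 measured keratinocyte markers were also lower in the β-END(1-9) comparison, by a smaller median than the laminins above background. Lower than control were 8 of 8, with a median difference of -0.09. Among the 7519 genes 56.1% were lower, with a median of -0.03, and the 4 laminins above background had a median of -0.37. Single markers and laminins overlapped, since Epcam (-0.30) and Perp (-0.25) lay further below control than Lamc1 (-0.19). The marker list had median log2 signals of 14.31 with Met-ENK, 13.96 with β-END(1-9) and 14.09 on the control array. Between the peptides 6 of 8 were higher with Met-ENK, with a median of 0.27, where 45.4% of the 7519 genes were higher and 33.0% lower. Of the markers 0 of 8 passed 1.5-fold in any comparison, beside 2.83% to 6.72% of the 7519 genes per comparison. The part of these markers in the laminin values was not tested. Genomic span, the distance from a gene's start to its end, was set against the differences over the 7519 genes. At the spans of the 9 genes (12.2 to 127 kb) the trend lay between -0.07 and 0.04 for Met-ENK against control. It ran up to 0.10 between the peptides. For β-END(1-9) against control it stayed at -0.06, to 2 decimals. Its removal in that comparison thus shifted the 9 genes by a nearly equal amount. With the trend removed, Itga6 was 0.46 higher with Met-ENK than with control, Lama5 differed from control by -0.37 with β-END(1-9), and Lamb3 differed between the peptides by 0.51.

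**Figure D3:**
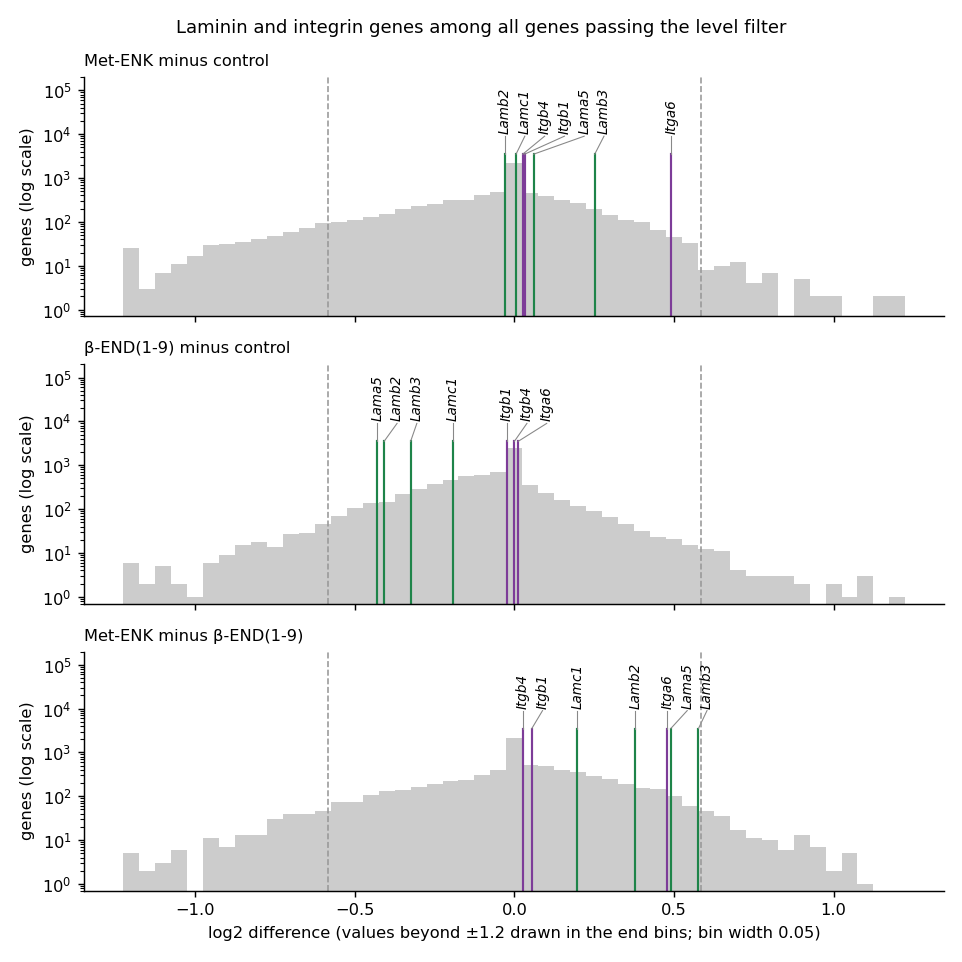
Numbers of genes (vertical axes, log scale) by log2 difference (horizontal axis) among the 7519 genes that passed the level filter, for the 3 comparisons, with the 7 laminin and integrin genes above the filter drawn as lines. The lines of Lamb3, Lama5, Lamb2 and Lamc1 lie in the left shoulder for β-END(1-9) minus control, inside the dashed 1.5-fold limits, and Itga6 lies in the right shoulder for Met-ENK minus control.

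Partners of the hemidesmosome had differences in both directions. Of 8 listed, 4 were measured, and 0 of 4 passed 1.5-fold in any comparison, beside 2.83% to 6.72% of the 7519 genes per comparison. Plec encodes plectin, which ties β4 integrin to keratin filaments. It had log2 signals of 14.15 with Met-ENK, 13.95 with β-END(1-9) and 13.81 on the control array, so that Met-ENK was the high array, 0.34 above control. Cd151, a tetraspanin that binds α6 integrins, had 15.38 with Met-ENK, 15.49 with β-END(1-9) and 15.38 on the control array. For Cd151 the 3 arrays lay within 0.11 of each other. Krt14 had 16.61 with Met-ENK, 16.63 with β-END(1-9) and 16.70 on the control array. Krt15, a keratin of basal cells singled out after its values were seen, had the widest spread of the 4, at 12.23 with Met-ENK, 12.76 with β-END(1-9) and 12.80 on the control array. Its difference of -0.57 for Met-ENK against control ran opposite to that of Itga6.

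Other receptors and matrix genes also stayed within 1.5-fold, as did most genes. Of the 15037 named genes, 7.19% were past it for Met-ENK against control, 4.61% for β-END(1-9) against control and 5.56% between the peptides. Of 8 measured laminin receptors outside the integrins above, 0 passed it in any comparison, with medians against control of -0.01 on the Met-ENK array and -0.09 on the β-END(1-9) array. Rpsa, a ribosomal protein first described as a laminin receptor, had 15.10 with Met-ENK, 15.53 with β-END(1-9) and 15.68 on the control array, so that Met-ENK was the low array (-0.58 against control). Of 7 other integrin subunits, 0 passed 1.5-fold, and medians against control were 0.09 on the Met-ENK array and 0.00 on the β-END(1-9) array. Itgb6, the epithelial β6 chain, had 13.09 with Met-ENK, 12.56 with β-END(1-9) and 12.88 on the control array, which is the order seen for Lamb3. Of 10 measured basement membrane genes, 5 passed the level filter and 0 passed 1.5-fold, at medians of 0.00 for Met-ENK and -0.05 for β-END(1-9). Agrin (Agrn) had 15.28 with Met-ENK, 15.07 with β-END(1-9) and 15.20 on the control array. Agrin thus had its low value with β-END(1-9), by 0.13 against control. Sparc did not share this order, at 17.10 with Met-ENK, 16.96 with β-END(1-9) and 16.94 on the control array. For β-END(1-9) against control, 6 of the 10 were lower, 2 higher and 2 equal. Over the 15037 named genes 39.5% were lower and 30.8% higher in that comparison. Among the genes that passed the level filter 56.1% were lower and 18.8% higher. Of the 10, 4 lay above the background range on all arrays, and no direction can be read from genes within it.

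Genes for proteins of integrin adhesion sites, which include links to actin, kinases, adaptors and integrin regulators, were measured for 19 of 22 listed genes, 18 of them passing the level filter. Against control, 9 were higher with Met-ENK and 4 lower, and 4 were higher with β-END(1-9) and 13 lower, at medians of 0.00 and -0.06. Of the 7519 genes, 32.7% were higher with Met-ENK and 45.7% lower. With β-END(1-9) 18.8% of them were higher and 56.1% lower, and the medians were 0.00 and -0.03. Between the peptides 14 were higher and 3 lower with Met-ENK, at a median of 0.10, beside the 45.4% higher and 33.0% lower over the 7519 genes. The single gene past 1.5-fold was Itgb1bp1, whose product binds the β1 tail and restrains β1 integrins, at 7.42 with Met-ENK, 7.86 with β-END(1-9) and 8.00 on the control array. Its difference of -0.59 for Met-ENK against control lay just past the limit, and its Met-ENK signal lay within the background range. In that comparison 6.72% of the 7519 genes were past 1.5-fold. α-Actinin-4 (Actn4) had 17.51 with Met-ENK, 17.18 with β-END(1-9) and 17.24 on the control array, so Met-ENK was the high array.

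Proteases that process or cleave laminins were measured for 12 of 12 listed genes, 6 of them passing the level filter. Medians against control were 0.00 with Met-ENK and -0.16 with β-END(1-9). Of the 6, 0 passed 1.5-fold in any comparison, beside 2.83% to 6.72% of the 7519 genes per comparison. Stromelysin-1 (Mmp3) had 16.34 with Met-ENK, 16.06 with β-END(1-9) and 16.32 on the control array, with β-END(1-9) as the low array. Mmp2, below the level filter, had 5.47 with Met-ENK, 5.40 with β-END(1-9) and 6.12 on the control array. It was past 1.5-fold lower with either peptide (-0.64 for Met-ENK and -0.72 for β-END(1-9)) within the background range.

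**Figure D4:**
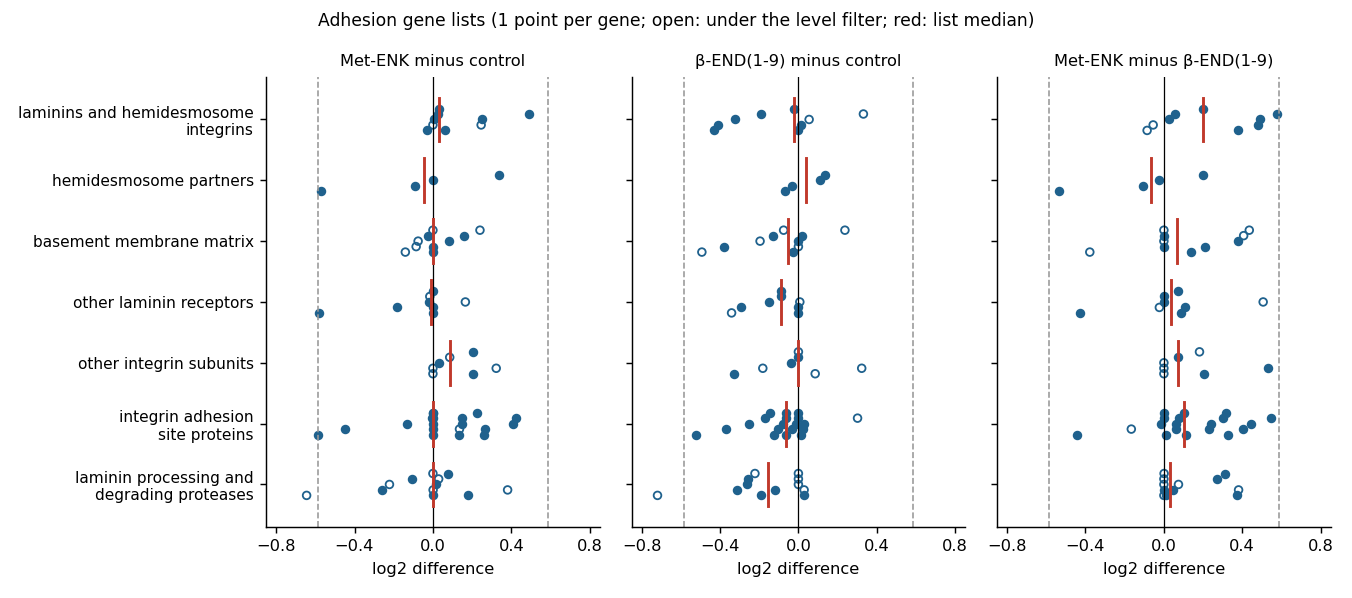
Log2 differences (horizontal axes) of each measured gene of 7 lists (vertical axis) in the 3 comparisons, with open points for genes under the level filter, red bars for list medians and dashed lines at 1.5-fold. Most points lie inside the dashed lines. Mmp2 lies past them for both peptides against control, and Itgb1bp1 (-0.59) lies on the limit for Met-ENK minus control.

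The genes with the pattern nearest to that of Lamb3 were found by the Euclidean distance between pairs of differences from control, over the 3 arrays. The 5 nearest of 7518 genes were Yes1, a Src family kinase (distance 0.02), Glyr1 (0.02), the mitochondrial fusion gene Opa1 (0.03), Nedd1, a centrosome protein (0.03), and Cdcp1, a membrane glycoprotein (0.03). With 3 arrays this likeness is loose, and 62 genes lay within a distance of 0.1 of Lamb3.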

How the data were processed

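RNA of 3 FRSK cultures was measured on Affymetrix whole-transcript arrays, 1 per condition. The table deposited by the authors holds log2 signals, 1 per probe set and array. Per the submitters' processing notes, the software was the Transcriptome Analysis Console and the Affymetrix Expression Console, with RMA, which corrects background, quantile-normalizes probes and summarises each set. Versions and genome build were not given in the sources used here. Groups came from sample titles.

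Of 24834 probe sets, 23188 were transcript clusters, and 15049 of these had 1 symbol in the platform annotation. Where a gene had several probe sets, that of highest mean was used. Differences are log2 signals of one array minus another. A gene was counted at 1.5-fold among the 7519 genes with a mean at or above the median. The members, lists and rules were chosen with earlier results of these data known. The named genes were the 9 members, each gene past 1.5-fold in a list other than the cell type markers, up to 3 per such list with the highest mean, and the 5 nearest to the member with the largest difference. No test was possible with 1 array per group, and the number of arrays limits the precision. Alternatives were median centring, quantile and cyclic loess scaling (limma 3.58.1, R 4.3.3), other filters and folds, the mean, and removal of the lowess trend along genomic span (statsmodels 0.14.6, fraction 0.3, GRCr8). The counting and scaling steps were tested on simulated data.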

Additional observations from a re-analysis of the deposited data

How the results depend on the processing

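The count of 0 genes past 1.5-fold held for both comparisons with control under median centring, quantile normalization, cyclic loess, no level filter, a filter at the top of the background range, and 2-fold. Between the peptides it was 1 with median centring and 1 after quantile normalization, in both cases Lamb3 (0.59 and 0.64), and 0 under the other 4. At a limit of 0.32 on the log2 scale the counts, among the 7 genes that passed the level filter, were 1 for Met-ENK against control, 3 for β-END(1-9) against control and 4 for Met-ENK against β-END(1-9), and Lama1, under the filter, was past it upwards for β-END(1-9) against control (0.33). The medians of the 9 genes moved by less than 0.1 under each of 3 scalings and with the mean, from 0.01 to 0.12 for Met-ENK, -0.11 to 0.01 for β-END(1-9) and 0.14 to 0.23 between the peptides, and the β-END(1-9) median was above 0 after loess alone. Of 108 single differences recomputed under 3 scalings and without the span trend, 103 moved by less than 0.1 and 15 changed sign, all of them differences of at most 0.05. The largest move was that of Lamb3 for Met-ENK against control, from 0.25 to 0.41 after quantile normalization. No paired analysis was possible because each condition has 1 array. Lama1 and Lamc3 are limited by signals within the background range.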
